A study of Mus musculus with 16 samples.

Results

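The polyribosomal RNA of Tsc2 mutant neural stem cells (NSCs) was compared with that of wild-type NSCs. The comparison took the 8 polyribosomal libraries of a series of 16 libraries, namely the 4 labelled TSC and the 4 labelled Control, and all genes of the polyribosomal table. Of 24946 genes, 14412 had a mean value of at least 10 normalized reads over the 8 libraries and were tested. The remaining 8 libraries hold total RNA of the same cultures and are used only to show where the polyribosomal change differed from the change of the whole transcript pool.

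Control cultures had the genotype Tsc2 wild type/wild type and TSC cultures the genotype Tsc2 mutant/mutant. Both were grown from the ventricular-subventricular zone (V-SVZ) of pups that had received tamoxifen 7 days earlier. The mutant pups came from a cross that carries a conditional Tsc2 allele, a tdTomato reporter and Nestin-CRE-ERT2, a tamoxifen-activated recombinase driven in neural progenitors. Recombination is therefore limited to cells that used the Nestin promoter, and cells in which it failed keep an intact allele. Whether the wild-type pups carried the recombinase is not given in the sources used here. Cells were passaged 1 time in medium with EGF and FGF, and how far each culture was expanding at lysis is not given. They received cycloheximide for 15 minutes, which holds ribosomes on their messages, and the lowest 3 mL of a 17.5% to 50% sucrose gradient were kept as the polyribosomal fraction. The labels do not tie cultures to animals or litters. A p-value here sets the difference between genotypes only against the spread among cultures of the same genotype.

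Tuberin, the product of Tsc2, works with hamartin to switch off the small GTPase Rheb, and Rheb activates the kinase complex mTORC1. mTORC1 promotes the translation of mRNAs that encode ribosomal proteins and translation factors, feeds nucleotide, lipid and amino acid synthesis, and holds the lysosomal transcription factors TFEB and TFE3 in the cytoplasm. A transcript that is being translated carries several ribosomes and sediments with the polyribosomes. The amount of an mRNA in that fraction reflects both how much of it the cells hold and how well it is loaded. The V-SVZ is the germinal zone beside the lateral ventricle, whose stem cells give rise to neuroblasts, astrocytes and oligodendrocytes.

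Depth was estimated at between 52.2 and 266 M reads per polyribosomal library (1 M is 1000000 reads), and the normalized reads of a library summed to between 87.4 and 100.5 M. Libraries of 1 genotype correlated across genes with Spearman coefficients of 0.981 to 0.997 and libraries of different genotypes with 0.966 to 0.991, as a description, since genes are not independent replicates. The label of neural stem cell was in keeping with the markers: the sum of 10 NSC markers was 855565 to 989233 normalized reads in wild-type and 744763 to 957039 in mutant cultures, and Nes, which encodes the intermediate filament nestin, stood at 48424, 50964, 60853 and 60511 in wild-type cultures 1 to 4 and at 65627, 66188, 37225 and 48334 in mutant cultures 1 to 4. Values of 4 cultures are given in this order throughout. Markers of endothelial and red blood cells were near the floor, with sums of 21.0 to 33.4 and 4.13 to 15.5. Sums of 4 oligodendrocyte markers (1931 to 4800 in wild-type and 11211 to 17189 in mutant cultures), 5 astrocyte markers (27753 to 47563 and 57175 to 134236) and 3 choroid plexus markers (4.85 to 9.77 and 26.1 to 727) did not overlap between genotypes. Gfap made up most of the astrocyte sum and Ttr most of the mutant choroid plexus sum. Of the other astrocyte markers, Gja1 was lower in every mutant culture (1519 to 2546 against 2665 to 3317 in wild-type) and Slc1a2 overlapped. Microglia markers overlapped, at 404 to 929 in wild-type and 147 to 1561 in mutant cultures. In bulk libraries, more cells of a type and more RNA per cell cannot be told apart.

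Sex markers were unevenly spread over the genotypes. The mean log2 level of 4 Y-linked genes was 9.40, 8.81, 9.05 and 4.80 in wild-type and 9.11, 3.12, 0.34 and 1.04 in mutant cultures. The log2 level of the X-linked gene Xist was 5.13, 6.92, 4.98 and 9.43 in wild-type and 0.74, 9.74, 8.59 and 9.04 in mutant cultures. Wild-type cultures 1 to 3 and mutant culture 1 therefore had high Y-linked levels, whereas wild-type culture 4 and mutant cultures 2 to 4 had low ones. Y-linked levels in the low group still ran from 0.34 to 4.80, with wild-type culture 4 above the mutant cultures. Genotype was also compared among the cultures with high levels alone (3 wild-type against 1 mutant) and among those with low levels alone (1 against 3), and the 2 log2 changes are given below as high-Y and low-Y values. They serve as a description of direction, since 1 side of each rests on a single culture.

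In Tsc2 mutant polyribosomal RNA, transcripts of glia, lysosomes, complement and lipid carriage were more abundant, whereas those of protein synthesis, nucleotide synthesis, DNA replication, splicing and the interferon response were less abundant. Of the 14412 genes tested, 3403 passed the threshold of limma's adjusted p of 0.05, which is 23.6% of all genes tested. Of these, 1690 (11.7%) were higher and 1713 (11.9%) lower in mutant cultures, and the median log2 change over all tested genes was 0.01. These shares are the background against which each group of genes below is read. The rises were larger than the falls, since 682 of the genes called higher and 202 of those called lower differed by at least 2-fold. Differences were often small, with 31.8% of called genes changed by less than 1.5-fold. In 4020 genes (27.9%) the 4 mutant values lay beyond the 4 wild-type values, and 2973 of these were called. The call held in every fit that left out 1 of the 8 cultures for 1518 genes.

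The calls moved with the sex markers. With a covariate for the Y-linked level, 30 genes (0.208%) passed, of which 17 had been called higher and 13 lower. The directions were kept, since all 1690 genes called higher had positive changes and all 1713 called lower had negative changes in both the high-Y and the low-Y cultures, against 69.6% of all tested genes that kept the sign of their change in both. The high-Y and low-Y comparisons are parts of the same 8 libraries that chose these genes, so the agreement is a description. The median change of the genes called higher was 1.01 in high-Y and 0.73 in low-Y cultures, and that of the genes called lower was -0.66 and -0.51. How far sex and genotype each contributed cannot be told apart in these cultures.

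The balance between directions differed with abundance. In the lowest quintile of genes by mean value, 18.1% were higher and 3.54% lower, and in the highest quintile 6.42% were higher and 24.2% lower. When each library was scaled to its total instead, the median of all genes moved to 0.13, and 2583 genes were higher and 929 lower. The direction of a gene group is therefore read against the other genes of the same table.

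The targeted locus was examined first. Tsc2 lies on chromosome 17 at 24595816 to 24632630 (GRCm38.p6). Tsc2 polyribosomal RNA was at 13165, 10615, 11506 and 10505 normalized reads in wild-type and at 9339, 8829.7, 8899 and 5956 in mutant cultures. The genotypes did not overlap, and the log2 change was -0.49 ± 0.15 (SE; limma adjusted p = 0.0389). Only part of Tsc2 is removed by recombination, so reads summed over the gene do not check the genotype labels. Total Tsc2 RNA was at -0.10, and the difference between the polyribosomal and the total change was -0.38 ± 0.12 (adjusted p = 0.0458).

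Other genes within 100 kb of Tsc2 changed as well. Rab26 (24527241 to 24534210), which encodes a small GTPase of secretory vesicles, stood at 12311, 16594, 17707 and 15596 in wild-type and at 81.1, 96.2, 127 and 94.9 in mutant cultures, a drop to 0.00642 of the wild-type level. This was the smallest adjusted p in the table (1.07e-10), and the change was -7.55 in high-Y and -7.20 in low-Y cultures. Pkd1 (24549834 to 24596508), the polycystin gene whose annotated end overlaps that of Tsc2, was at 22731, 23355, 29351 and 21257 and 8302, 7686, 7811 and 4634. Reads in the overlap cannot be assigned to Pkd1 or Tsc2 with certainty, since the libraries do not mark strand. Noxo1, an organizer of a superoxide-forming oxidase, stood at 189 ± 18.3 normalized reads in wild-type and at 723 ± 41.6 in mutant cultures (mean ± SD, 4 cultures per genotype) and remained called with the Y-linked covariate. Its position (24696234 to 24700529) overlaps that of Tbl3 (24697949 to 24707660), so their reads may be shared. The synaptic vesicle gene Syngr3 (log2 change 1.16 ± 0.21), the DNA glycosylase gene Nthl1 (0.51 ± 0.12), which begins beside the start of Tsc2, and the noncoding Snhg9 (1.12 ± 0.29) were higher. Tbl3 (-0.52 ± 0.13) and the ribosomal protein gene Rps2 (-0.62 ± 0.13) were lower. Nearby Gfer (-0.05 ± 0.14) and Ndufb10 (-0.22 ± 0.14) were not called.

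Myelin transcripts were raised nearly uniformly. Myelin genes encode the proteins and lipid enzymes with which oligodendrocytes wrap axons. Of 16 tested, 14 were higher and 0 lower, against 11.7% higher among all genes, with a median log2 change of 1.80 (2.05 in high-Y and 1.38 in low-Y cultures). Cldn11, the tight junction protein of the myelin sheath, stood at 108, 98.4, 163 and 214 in wild-type and at 604, 431, 725 and 352 in mutant cultures. The lowest mutant culture exceeded the highest wild-type culture, and the log2 change was 1.86 ± 0.29 (limma adjusted p = 0.00271). The connexin gene Gjc3 (2.18 ± 0.28) rose, as did Fa2h (1.76 ± 0.29), Ugt8a (1.14 ± 0.24) and Gal3st1 (1.35 ± 0.30), whose enzymes make the galactolipids of myelin. Cryab, a small heat shock protein of oligodendrocytes, rose by 1.83 ± 0.27 on polyribosomes and by 1.31 in total RNA, a difference that passed the test (adjusted p = 0.0151). The sum of 4 oligodendrocyte markers moved with this group, as given above, and the part of cell number was not tested.

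Oligodendrocyte precursor genes were higher less uniformly. Of 17 tested, 5 were higher and none lower (median 0.53), so that 29.4% were called against 23.6% of all genes. The chondroitin sulfate proteoglycan gene Cspg5 went from 8691, 14142, 11090.2 and 12649.9 in wild-type to 31398, 20541, 32972 and 31651 in mutant cultures, with no overlap. Lhfpl3 (1.29 ± 0.26), Bcas1 (0.86 ± 0.15), a gene of newly forming oligodendrocytes, and the PDGF receptor gene Pdgfra (0.71 ± 0.19) rose too. Among the lineage transcription factors, Olig1 rose by 0.28 ± 0.09, Olig2 was at -0.18 ± 0.12 and Sox10 at 0.82 ± 0.34, and the last pair did not pass. Sox10 stood at 2401, 2520.3, 2471 and 2225 and 6214, 3923, 6891 and 1946, so that the genotypes overlapped.

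Of 26 astrocyte genes tested, 11 were higher and 2 lower (median 0.50, 0.59 in high-Y and 0.49 in low-Y cultures). Aqp4, the water channel of astrocyte endfeet, stood at 364, 262, 354 and 310.4 in wild-type and at 486, 618, 866 and 1046 in mutant cultures. Gfap, the filament protein of astrocytes and V-SVZ stem cells, was at 43258, 36549.5, 22285 and 33361 and 61030.0, 52353, 126208 and 71743 (log2 change 1.16 ± 0.27). Neither gene overlapped between genotypes, and mutant culture 3 was the highest for Gfap and mutant culture 4 for Aqp4. The metalloprotease inhibitor gene Timp4 (1.12 ± 0.17), the glutamate transporter gene Slc1a2 (0.94 ± 0.27) and the sodium pump gene Atp1b2 (0.81 ± 0.25) rose. The FGF receptor gene Fgfr3 (-0.83 ± 0.20) and the gap junction gene Gja1 (-0.57 ± 0.16) fell, both further than in total RNA (-0.16 and -0.14).

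**Figure D1:**
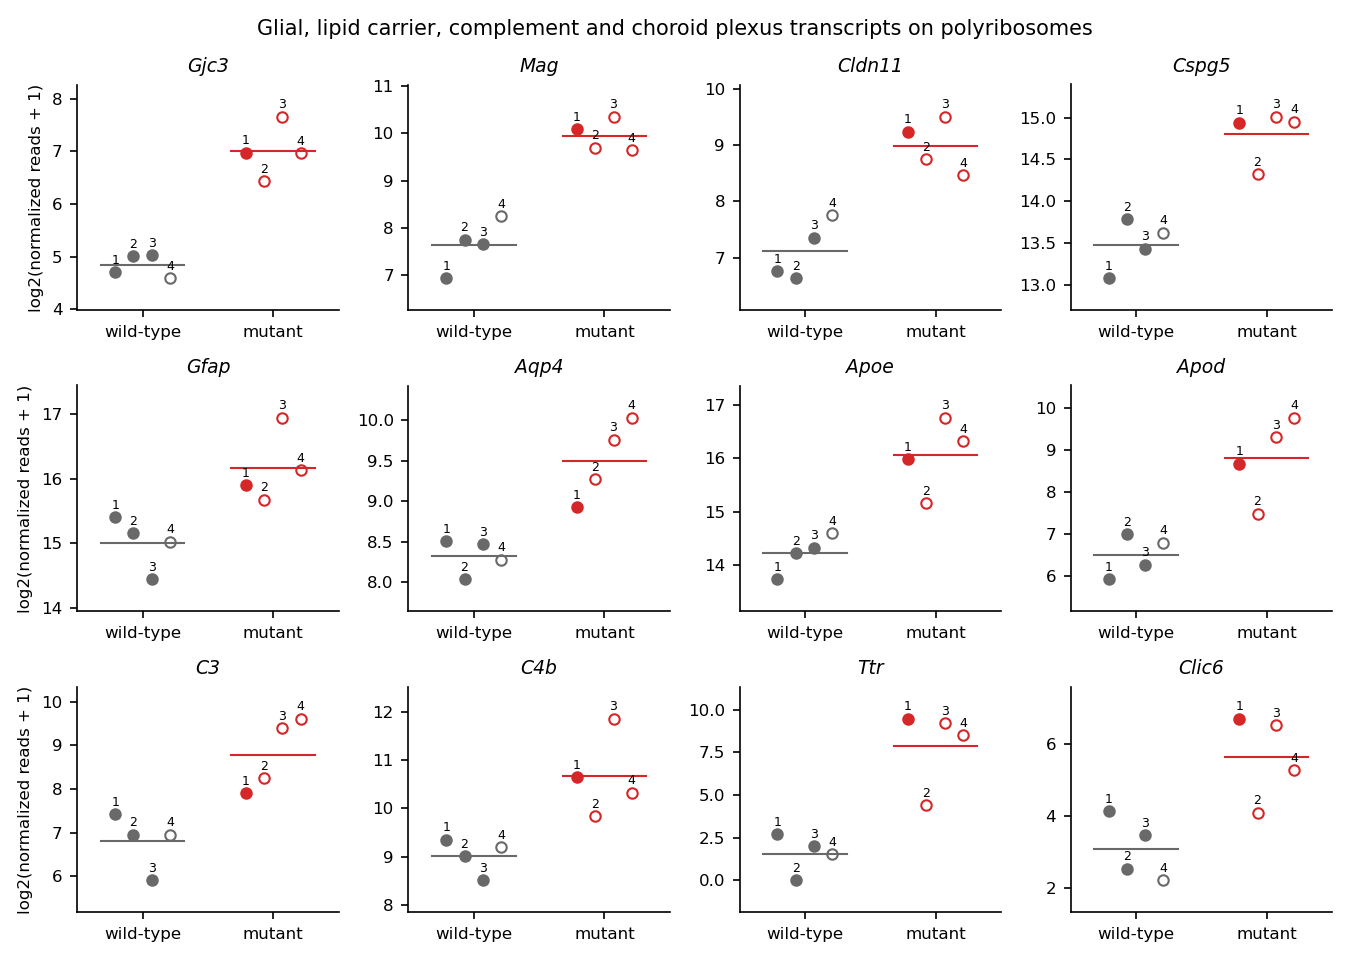
Normalized reads of 12 glial, lipid carrier, complement and choroid plexus transcripts on polyribosomes, on a log2(value + 1) axis, with 1 point per library labelled by its culture number and the mean as a bar. Filled points are high-Y and open points low-Y cultures; each panel has its own axis range, and in all panels except that of Clic6 the 4 mutant points lie above every wild-type point.

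Carriers of lipid were raised alongside the glial genes. Of 21 genes of lipid transport and lipid droplets, 10 were higher and none lower (median 0.52). Apoe, the main lipoprotein component secreted by astrocytes, was at 13661, 19186, 20502 and 24793 in wild-type and 64543, 36476, 110658 and 81396 in mutant cultures. Apod, another lipid-binding secreted protein, was at 59.8, 127, 76.4 and 109.9 and 410.4, 179, 638 and 875. Neither gene overlapped between genotypes, and Apod rose by 2.32 ± 0.44 on the log2 scale. Fabp3, a fatty acid carrier, stood at 28.2, 80.1, 53.6 and 105 and 261, 239.8, 262 and 162. The lipoprotein receptor genes Lrp1 (0.95 ± 0.14) and Vldlr (0.84 ± 0.19), the cholesterol exporter gene Abca1 (1.33 ± 0.19), its regulator Nr1h3 (0.63 ± 0.21), the triglyceride lipase gene Pnpla2 (0.68 ± 0.19) and Dgat1 (0.52 ± 0.15), which completes triglyceride synthesis, rose as well. Apoe also counts among the astrocyte genes.

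Genes of sterol and fatty acid synthesis, which mTORC1 promotes through SREBP, were not raised as groups. The share called was 24% for sterol and 26.3% for fatty acid genes, against 23.6% of all genes, and the fatty acid median was 0.004. Of 25 sterol genes, 6 were lower and none higher (median -0.28), and 1 was lower under library size scaling. The genes called lower included lanosterol synthase Lss (-0.90 ± 0.18), Fdps (-0.42 ± 0.13), Dhcr7 (-0.64 ± 0.21), the transcription factor gene Srebf2 (-0.52 ± 0.16) and Stard4 (-0.43 ± 0.14). Of 19 fatty acid genes, 4 fell, namely Acly (-0.54 ± 0.12), Scd1 (-0.52 ± 0.16), Scd2 (-0.52 ± 0.13) and Fads1 (-0.41 ± 0.13), and Fads3 rose (0.64 ± 0.16). With library size scaling the counts were 3 higher and 1 lower. Fasn, the fatty acid synthase, was at 0.32 ± 0.21 and did not pass.

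Complement and acute phase transcripts showed the widest rise next to myelin. Complement proteins tag cells and debris for removal, and acute phase proteins are secreted in inflammation. Of 19 genes tested, 15 were higher and 1 lower, with a median of 1.65 (1.29 in high-Y and 1.42 in low-Y cultures). The central complement gene C3 was at 170.0, 123, 59.2 and 123 in wild-type and at 238, 304, 672 and 780.0 in mutant cultures. The genotypes did not overlap for C3, and mutant cultures 3 and 4 stood well above mutant cultures 1 and 2. C4b, which acts just before C3, was at 653, 513, 365 and 588 and 1600.5, 918, 3693 and 1280.0, with no overlap. It rose by 1.65 ± 0.37 here, which was less than its rise of 2.27 in total RNA (adjusted p of the difference = 0.0465). The protease gene C1s1 (1.85 ± 0.44) and its inhibitor gene Serping1 (1.12 ± 0.32) rose together, as did Cd59a (2.18 ± 0.29), which blocks the terminal complement complex. The alarmin gene Il33 (1.72 ± 0.40) and the calcium-binding genes S100a6 (2.04 ± 0.27) and S100a10 (0.77 ± 0.19) rose too. The exception was Saa3, a serum amyloid gene, which stood at 91.0, 133, 122 and 99.7 in wild-type and at 12.4, 33.4, 31.2 and 40.2 in mutant cultures, a change of -1.99 ± 0.34. Cp and Lcn2 of this list are also iron genes, and Clu is also an astrocyte gene.

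Chemokine and cytokine genes did not move one way. Of 35 tested, 5 were higher and 4 lower (25.7% called, against 23.6% of all genes). The oncostatin receptor gene Osmr (1.75 ± 0.30), Cxcl14 (0.88 ± 0.16) and Cxcl5 (2.52 ± 0.57) rose, while Il1b (-3.29 ± 0.51), Ccl5 (-1.81 ± 0.40) and the interferon-induced Cxcl10 (-1.01 ± 0.19) fell. Il1b was scarce, at 16.4, 55.3, 83.9 and 51.6 in wild-type and 2.76, 7.41, 4.64 and 1.64 in mutant cultures.

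Choroid plexus genes, which mark the epithelium that secretes cerebrospinal fluid beside the V-SVZ, were higher in 8 of 10 cases (median 1.22). Folr1, a folate receptor of that epithelium, was at 4.28, 1.65, 3.12 and 0 in wild-type and 17.4, 6.08, 40.2 and 16.1 in mutant cultures. Clic6, a chloride channel gene, was at 16.6, 4.80, 10.1 and 3.65 and 104, 16.2, 92.5 and 38.0. Mutant culture 2 was lowest among the mutants for Clic6, where it fell just inside the wild-type range, and for Folr1, as it was for Ttr at 704, 19.97, 596 and 360.3. Aqp1, the apical water channel, rose by 0.99 ± 0.33 and passed narrowly (limma adjusted p = 0.049). Without mutant cultures 1 and 3 its change was 0.68 and did not pass. Otx2, the transcription factor that specifies choroid plexus, was at 0.17 ± 0.20 and did not pass. Otx2 was well expressed and overlapped, at 1054, 1035, 593 and 1034 and 842, 1129, 999 and 1121. Of 13 genes of ependymal cilia, 3 were higher and none lower (23.1% called, against 23.6% of all genes). The ciliogenesis factor gene Foxj1 was at -0.10 ± 0.12.

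Lysosomal transcripts were raised as a group. Lysosomal hydrolases break down proteins, glycans and lipids, and their genes are targets of TFEB and TFE3. Of 47 genes of lysosomal hydrolases and membrane proteins, 22 were higher and none lower, against 11.7% higher among all genes (median 0.45, 0.42 in high-Y and 0.38 in low-Y cultures). Ctsf, a cysteine protease gene, was at 781, 1286, 1362 and 1318 in wild-type and at 3498, 1753, 3556 and 3110.2 in mutant cultures. Lgmn, which encodes the protease legumain, was at 2841, 3675, 3565 and 3258 and 7227, 4440.3, 9707 and 6842. The genotypes did not overlap for either gene, and mutant culture 2 was the lowest mutant for both. The protease genes Ctsh (0.77 ± 0.15) and Ctsa (0.80 ± 0.17), the sphingolipid enzyme gene Smpd1 (0.57 ± 0.13), the sterol carrier gene Npc2 (0.55 ± 0.15) and Grn, which encodes progranulin (0.65 ± 0.15), rose by smaller amounts. Gpnmb, a glycoprotein gene of stressed lysosomes, was at 980.4, 1977, 1184 and 1677 and 2292, 4640.0, 5054 and 5916. Of 17 microglia genes 1 rose and 0 fell, whereas 6 were lower without mutant cultures 2 and 4 and 5 higher without mutant cultures 1 and 3.

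The proton pump that acidifies lysosomes moved less. Of 17 V-ATPase subunit genes, 3 were higher (Atp6v1f at 0.89 ± 0.18, Atp6v0e at 0.86 ± 0.20 and Atp6v0d1 at 0.45 ± 0.14) and none lower (median 0.36). The share called was 17.65% for V-ATPase and 26.7% for autophagy genes, against 23.6% of all genes. Atp6v1f and Atp6v0e rose more on polyribosomes than in total RNA, where they were at 0.19 and 0.21. Of 30 autophagy genes, 8 were higher and none lower (median 0.29), among them Map1lc3a (1.07 ± 0.20), Map1lc3b (0.86 ± 0.23) and Gabarap (0.72 ± 0.17), which encode the lipid-anchored proteins of the autophagosome. The autophagy receptor gene Sqstm1 was at 56535, 55647, 50849.6 and 55502 in wild-type and 130535, 62175, 209253 and 72573 in mutant cultures. All mutant values were higher, but mutant cultures 1 and 3 stood far above cultures 2 and 4, and the change did not pass (adjusted p = 0.0675). The transcription factor genes Mitf and Tfeb (0.52 ± 0.17) rose and Tfe3 was at 0.08 ± 0.18.

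The promoters of these genes were searched for the letters TCACGTGA, the core of the element that TFEB and its relatives bind, which reads the same on both strands. RefSeq promoter windows (GRCm38.p6, 250 bases before to 50 after a start) matched 11235 of the 14412 tested genes. The motif was present in 230 of these genes (2.05%), in 5 of 38 lysosomal genes with a window (13.2%) and in 3 of 12 V-ATPase genes (25%, but 8.33% in the 250 bases before the start alone). Of 17 lysosomal genes called higher 2 held it (11.8%), and of 21 not called 3 (14.3%). The stretches of Ctsd and Ctsa are shown as those of the 2 called genes, with the motif in capitals and 12 bases to each side where the window allows (Ctsd at chr7:142387907-142387938, minus strand; Ctsa at chr2:164833748-164833772, plus strand).
Ctsd: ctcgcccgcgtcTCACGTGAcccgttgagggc
Ctsa: atgagcaaactgTCACGTGAtgcag
Ctsd stood at 22239.7, 32883, 30909.7 and 32767 normalized reads in wild-type and at 62293, 47604, 55990.4 and 63879.6 in mutant cultures, and Ctsa at 4451, 6049, 6155 and 6215 and 11925, 7711, 11741 and 8823. Neither gene overlapped between genotypes. A match of letters is a description of the window and does not show that a factor binds there.

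Genes of iron and copper handling rose in 10 of 22 cases and fell in 1 (median 0.37). Fth1, the heavy subunit of the iron store ferritin, was at 40863, 46246, 34934 and 48142 in wild-type and at 105993, 70293, 122128 and 91194 in mutant cultures. The light subunit gene Ftl1 was at 79860.1, 78346, 75836 and 75139 and 134355, 104757, 130570.4 and 88174. Both ferritin subunits were without overlap, and Fth1 rose by 1.18 ± 0.17 and Ftl1 by 0.55 ± 0.13. Cp, which encodes the copper-carrying ferroxidase ceruloplasmin, rose by 2.38 ± 0.22 and remained called with the Y-linked covariate (2.08, adjusted p = 0.018). The heme-degrading enzyme gene Hmox1 (0.63 ± 0.15), the iron exporter gene Slc40a1 (1.87 ± 0.47) and the transferrin gene Trf (1.92 ± 0.56) rose. Trf varied widely among wild-type cultures, with values of 926, 7070.3, 2694 and 4039.6, and is also a transcript of oligodendrocytes. The metallothionein genes Mt1 (1.24 ± 0.32) and Mt2 (1.60 ± 0.27), which bind zinc and copper, rose further than in total RNA (0.49 and 0.87), and the zinc and iron importer gene Slc39a14 fell (-0.46 ± 0.15).

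**Figure D2:**
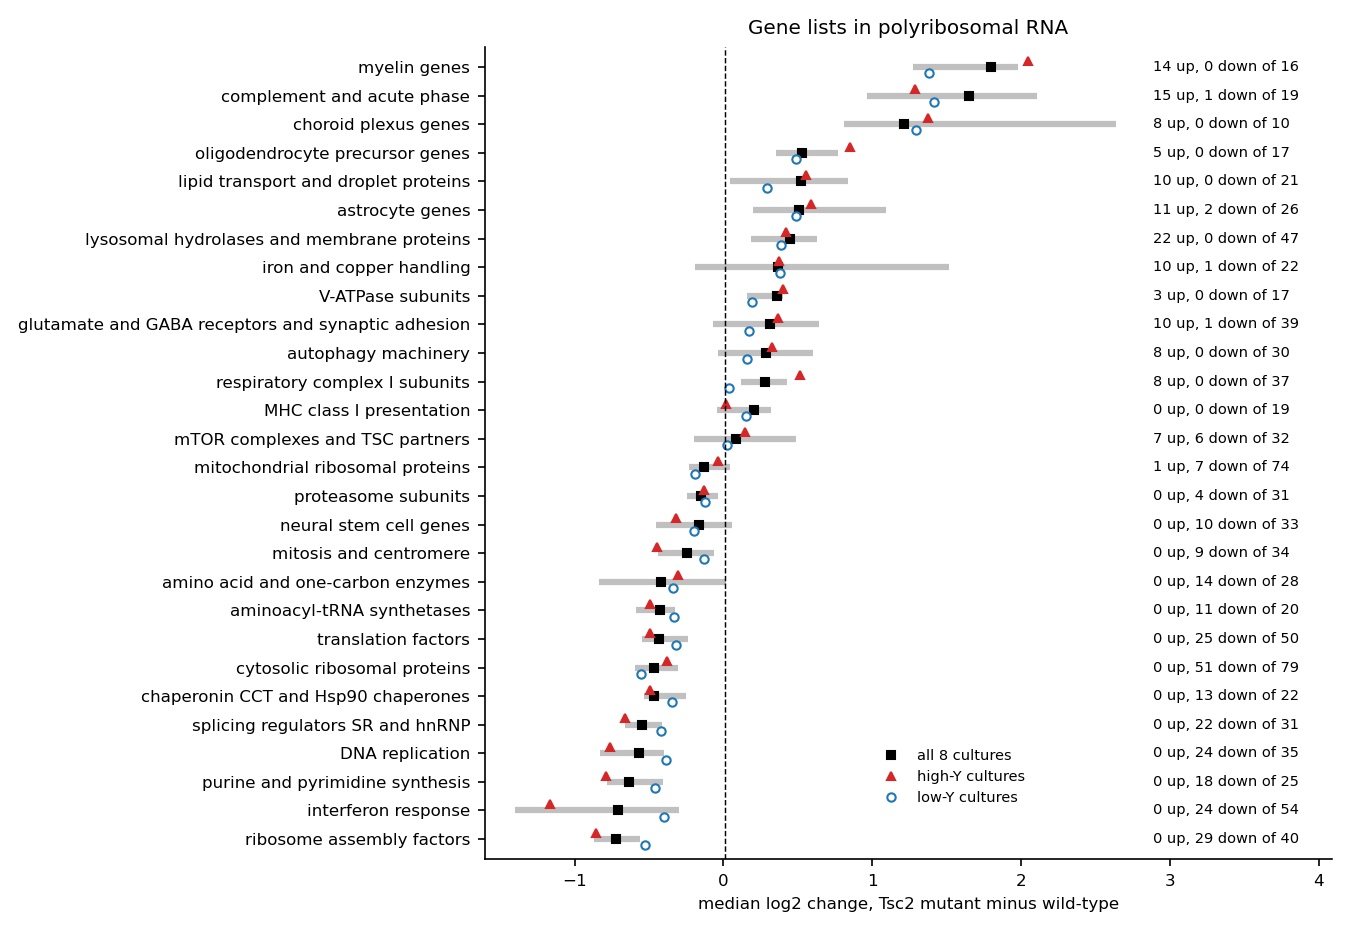
Median log2 change of 28 gene lists in polyribosomal RNA (Tsc2 mutant minus wild-type) as squares, with a grey bar over the middle 50% of the members, and the same median in high-Y cultures as triangles and in low-Y cultures as circles. Text at the right counts the members called higher (up) and lower (down) of those tested; the dashed line marks the median of all tested genes, and myelin genes at 1.80 and ribosome assembly factors at -0.72 lie at the ends.

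Transcripts of the translation machinery were lower. Of 79 cytosolic ribosomal protein genes, 51 were lower and none higher (median -0.47, -0.38 in high-Y and -0.55 in low-Y cultures). Against this, 11.9% of all genes and 24.2% of the most abundant quintile were lower. Library size scaling left 29 members lower. Processed copies of these genes are frequent in the genome and may take part of their reads, which makes a single member less sure than the group. Rps6, whose product is phosphorylated downstream of mTORC1, was at 105421, 106708, 98906 and 99702 in wild-type and 57395, 70637, 45262 and 81441 in mutant cultures. Rps3 was at 155944, 174294, 144080.0 and 168526 and 105990.2, 119685, 80503 and 122457, again with all mutant cultures lowest. Mutant culture 3 was lowest for both and also had the lowest mean level of the list. Rpl30 fell less on polyribosomes (-0.72 ± 0.14) than in total RNA (-1.17), and over the list 9 members were higher relative to total RNA and 0 lower (median difference 0.12).

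Of 40 ribosome assembly genes, 29 were lower and none higher (median -0.72), and 24 were lower under library size scaling. Rrp12, needed for export of pre-ribosomes, was at 8722, 7257, 8519 and 7333 and 3624, 4675, 2828 and 2992. Nat10, an RNA acetyltransferase of the nucleolus, was at 7623, 6053, 7368 and 5625 and 3467, 3727, 3179 and 2852. Both fell further on polyribosomes (-1.20 ± 0.16 and -1.01 ± 0.14) than in total RNA (-0.67 and -0.65), and over the list 2 members were called lower relative to total RNA and 2 higher (median in total RNA -0.79). Of 50 translation factor genes, 25 were lower and none higher (median -0.44), and under library size scaling 16 were lower and 2 higher. Eif4ebp2, which encodes a repressor of cap-dependent initiation that mTORC1 inactivates, was at 9261, 9091, 9346 and 7930.4 in wild-type and 4539, 6360.4, 5358 and 2644 in mutant cultures. It fell on polyribosomes (-0.98 ± 0.22) and was at -0.22 in total RNA (adjusted p of the difference = 0.0129). The poly(A)-binding protein gene Pabpc4 (-1.11 ± 0.18) and the scaffold gene Eif4g1 (-0.80 ± 0.15), which joins the cap-binding protein to the ribosome, fell. Eef1a1, the most abundant elongation factor message, fell (-0.48 ± 0.13).

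Aminoacyl-tRNA synthetases, which charge tRNAs, were lower in 11 of 20 cases and higher in none (median -0.43), with 8 lower under library size scaling. Vars, the valine enzyme, was at 38250.1, 28550.5, 31419 and 25030.4 in wild-type and 14522, 18687, 11355 and 11825 in mutant cultures, a change of -1.14 ± 0.17 against -0.52 in total RNA. Relative to total RNA 1 synthetase gene, Vars, was called lower and 2 higher, and the median of the list in total RNA was -0.55. Cars (-0.81 ± 0.12), Mars (-0.79 ± 0.13), Gars (-0.59 ± 0.11) and Tars (-0.61 ± 0.14) fell too. Genes of amino acid synthesis, one-carbon metabolism and amino acid uptake fell in 14 of 28 cases and rose in none (median -0.42). Library size scaling left 11 of them lower. Bcat1, the cytosolic branched-chain aminotransferase, was at 8751, 7909, 10271 and 6918 and 3709, 3793, 2842 and 2033. Slc7a1, the arginine transporter, was at 5775, 5959, 8227 and 4882 and 2904, 3774, 2085 and 2077. Neither overlapped, and Slc7a1 (-1.22 against -0.54 in total RNA) and the leucine transporter gene Slc7a5 (-0.83 against -0.33) fell further on polyribosomes. Slc3a2, the partner chain of Slc7a5, was at 0.25 ± 0.14 and did not pass.

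Both sets include targets of ATF4, which binds with C/EBP partners to sites with the core TGATGNAA. On either strand this motif was present in 300 of 11235 genes with a window (2.67%), in 5 of 12 synthetase genes (41.7%, 4 of the 6 called lower and 1 of the 6 not called, or 25% before the start alone) and in 6 of 23 amino acid genes (26.1%, 2 of the 12 called lower and 4 of the 11 not called). Asns, asparagine synthetase, is shown as the textbook target of this pathway, and Gars and Tars as synthetases, with the motif or its reverse complement in capitals (Asns at chr6:7693213-7693244, minus strand; Gars at chr6:55037959-55037990, plus strand; Tars at chr15:11399659-11399685, minus strand).
Asns: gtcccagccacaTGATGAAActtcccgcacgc
Gars: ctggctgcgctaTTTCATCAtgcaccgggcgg
Tars: ccaggagtcccgTTGCATCAgctggtt
Asns was at 21247, 18619, 24373 and 16084 in wild-type and at 11404, 10569.7, 10526 and 9574 in mutant cultures, without overlap. Atf4 itself was at 16322, 19577, 19436 and 16859.8 and 31764, 18741, 27744 and 19362, a change of 0.40 ± 0.17 that did not pass, and its stress partner Ddit3 rose from 452, 713, 669 and 727 to 2458, 903, 2374 and 1176. Ddit3 was highest in mutant cultures 1 and 3.

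Nucleotide synthesis was lowered along both its purine and its pyrimidine branch. Of 25 genes tested, 18 were lower and none higher (median -0.64, -0.79 in high-Y and -0.46 in low-Y cultures). Library size scaling left 15 lower and 1 higher. Atic, which catalyses the last steps to inosine monophosphate, was at 32688, 27485, 29607 and 26398 in wild-type and at 15706, 17069, 14890.3 and 13195 in mutant cultures. Cad, the enzyme that starts pyrimidine synthesis and is activated by mTORC1 signalling, was at 35133, 24719, 32648 and 25879.7 and 15540.4, 20738, 12555 and 10801. Neither gene overlapped between genotypes. The purine genes Gart (-0.89 ± 0.13), Pfas (-0.98 ± 0.19) and Impdh2 (-0.64 ± 0.11) and the pyrimidine genes Umps (-0.71 ± 0.13) and Dhodh (-0.70 ± 0.13) fell by like amounts. Dctd, which supplies deoxyuridylate for thymidylate, fell (-1.92 ± 0.23) and remained called with the Y-linked covariate. For Cad and Pfas the fall exceeded that in total RNA (-0.52 and -0.29), whereas for the other genes named here the difference from total did not pass.

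DNA replication genes fell alongside. Of 35 tested, 24 were lower and none higher (median -0.57), and 16 were lower under library size scaling. Pold1, the catalytic subunit of the lagging-strand polymerase, was at 39000.1, 31672, 33453 and 27329 in wild-type and 14376, 20354, 10927 and 12449 in mutant cultures. The licensing factor gene Cdc6 was at 6926, 5046, 5818 and 4478 and 2210.5, 3590.5, 1906 and 3158. For Cdc6 mutant cultures 1 and 3 were lowest, and over the whole list the change was -0.76 in high-Y and -0.38 in low-Y cultures. Of 34 mitosis genes 9 were lower and none higher (median -0.24), so that 26.5% were called against 23.6% of all genes. Foxm1 (-0.62 ± 0.16) and Aurka (-0.50 ± 0.14) were among these 9. The count of lower mitosis genes was 20 without mutant cultures 2 and 4, 0 without mutant cultures 1 and 3 and 1 under library size scaling. The proliferation markers Mki67 (0.15 ± 0.27) and Top2a (0.08 ± 0.20) and the sliding clamp gene Pcna (-0.36 ± 0.15) did not pass. Of 22 genes of G1 control, Ccne1 (-0.96 ± 0.22), Ccnd1 (-0.35 ± 0.09), Ccnd2 (-0.40 ± 0.12), Cdk2 (-0.44 ± 0.13) and Trp53 (-0.56 ± 0.16) fell and the inhibitor genes Cdkn1c (0.65 ± 0.19) and Rb1 (0.51 ± 0.17) rose. Of these 22 genes 31.8% were called, against 23.6% of all genes, and under library size scaling 6 were higher and 1 lower.

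Replication genes are controlled by E2F factors, whose site has the core TTTNGCGC. On either strand it was present in 306 of 11235 genes with a window (2.72%), in 11 of 30 replication genes (36.7%, 9 of the 21 called lower and 2 of the 9 not called, or 20% before the start alone) and in 1 of 27 mitosis genes (3.7%). Before the start alone it was in 4 of the 21 replication genes called lower (19%) and 2 of the 9 not called (22.2%). Mcm5, a subunit of the replicative helicase, is shown because its window holds overlapping matches on both strands, and Orc1 and Uhrf1 as other replication genes called lower (Mcm5 at chr8:75109344-75109379, plus strand; Orc1 at chr4:108579415-108579446, plus strand; Uhrf1 at chr17:56304116-56304147, plus strand).
Mcm5: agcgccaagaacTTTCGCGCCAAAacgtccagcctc
Orc1: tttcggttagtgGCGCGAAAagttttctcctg
Uhrf1: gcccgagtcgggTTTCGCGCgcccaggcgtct
Mcm5 was at 66547, 61843, 66585 and 57598 and 40415, 50115, 32400.5 and 36777, and Orc1 (-0.83 ± 0.27) and Uhrf1 (-1.11 ± 0.16) fell. The gene of the activator E2f2 fell (-1.08 ± 0.20).

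Splicing regulators were lowered to a like extent. SR proteins and hnRNPs bind nascent transcripts and set which exons are joined. Of 31 tested, 22 were lower and none higher (median -0.55, -0.66 in high-Y and -0.42 in low-Y cultures), and 18 were lower under library size scaling. Srsf6 was at 39358, 38132, 40405 and 35768 in wild-type and at 22078, 24593, 21043 and 23581 in mutant cultures. Srsf1, the founding SR protein, was at 38489.9, 35725, 33511 and 32481 and 15976, 23465, 16332 and 20019.8. Both showed a wide gap between genotypes relative to the spread within them. Ptbp1, which represses neuronal exons in progenitors, fell (-0.71 ± 0.15), as did Hnrnpc (-0.66 ± 0.11) and Hnrnpd (-0.81 ± 0.14). Hnrnpd was at -0.27 in total RNA, and the difference passed (adjusted p = 0.0265).

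Cytosolic folding factors fell while proteasome and endoplasmic reticulum genes mostly did not pass. Of 22 genes of the chaperonin CCT and the Hsp90 system, 13 were lower and none higher (median -0.47). Library size scaling left 6 of them lower. Cct2, a CCT subunit, was at 80355, 63727, 73084 and 66460.4 and 42991, 50118, 39095 and 54035, and Hspd1, the mitochondrial chaperonin, at 25812, 25610.4, 23882 and 23188 and 11214, 16109.9, 7667 and 19909. Neither gene overlapped between genotypes. Of 20 chaperone genes of the endoplasmic reticulum 5 were lower, so that 25% were called against 23.6% of all genes. Hyou1 led the falls (-0.95 ± 0.17), while Hspa5, the most central of these chaperones, was at -0.55 ± 0.22 and did not pass. Under library size scaling 3 of these 20 genes were higher and 3 lower. Of 31 proteasome genes 4 were lower and none higher (12.9% called, median -0.15, which turned to 0.02 under quantile normalization).

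In glucose metabolism, 2 of 24 genes rose and 3 fell (20.8% called, against 23.6% of all genes). Under library size scaling 4 were higher and 3 lower. Hk2, the inducible hexokinase, was at 4234, 3036, 3029.9 and 2983 in wild-type and 1229, 1952, 1244 and 1040.2 in mutant cultures. Hk2 (-1.31 ± 0.19), Pfkfb3 (-0.95 ± 0.13), which makes the activator of phosphofructokinase, and the lactate transporter gene Slc16a1 (-0.79 ± 0.15) fell, and all 3 fell further on polyribosomes than in total RNA (-0.45, -0.47 and -0.34). Eno2, the neuronal enolase (1.15 ± 0.28), and Ldhb (0.77 ± 0.16) rose. Of 10 genes of the pentose phosphate pathway 1 passed, Rpia (-0.58 ± 0.12).

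**Figure D3:**
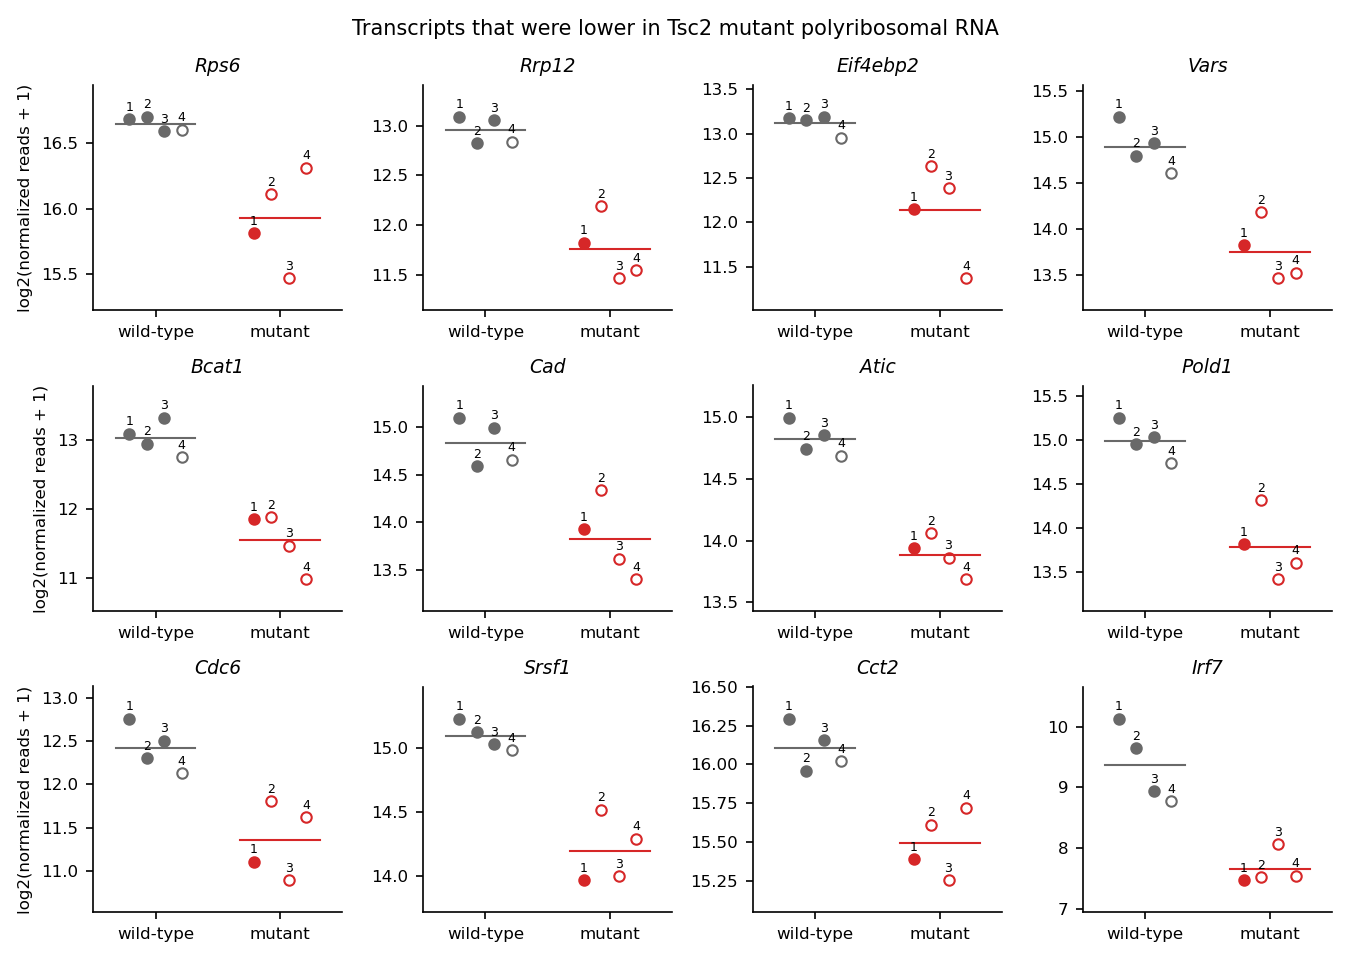
Normalized reads of 12 transcripts of protein synthesis, nucleotide synthesis, DNA replication, splicing, folding and interferon response on polyribosomes, on a log2(value + 1) axis, with 1 point per library labelled by its culture number and the mean as a bar. Filled points are high-Y and open points low-Y cultures; each panel has its own axis range, and in all 12 the mutant points lie below every wild-type point.

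Interferon response transcripts fell about as deeply as those of ribosome assembly. They encode antiviral effectors and the signalling factors that induce them. Of 54 tested, 24 were lower and none higher (median -0.71), and under library size scaling 22 were lower and 1 higher. The median was -1.16 in high-Y and -0.40 in low-Y cultures. Irf7, the factor that amplifies interferon production, was at 1119, 801, 489.6 and 436 in wild-type and at 177, 184, 267 and 187 in mutant cultures. The genotypes did not overlap, and wild-type culture 4, the low-Y wild-type culture, was the lowest wild-type culture. The effector genes Ifi44 (-2.59 ± 0.36), Mx1 (-2.79 ± 0.42) and Oasl2 (-2.56 ± 0.40) fell, and Usp18 (-2.50 ± 0.27), Rtp4 (-2.35 ± 0.28), Oasl1 (-2.75 ± 0.25) and Isg15 (-1.91 ± 0.22) remained called with the Y-linked covariate. The signalling genes Stat2 (-0.44 ± 0.18) and Irf9 (-0.63 ± 0.22) did not pass. None of 19 genes of MHC class I presentation passed (median 0.21), B2m being at 1717, 1902, 1804 and 1755 and 1826, 2085, 2267 and 2806.

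Many interferon genes carry the interferon-stimulated response element, whose core was searched on both strands as GAAA, any 2 bases and GAAA again. It was present in 404 of 11235 genes with a window (3.6%), in 19 of 38 interferon genes (50%) and in 5 of 16 MHC class I genes (31.2%, or 18.8% before the start alone). Within the interferon list the share was 7 of the 15 genes called lower and 12 of the 23 not called. Stretches are shown for 3 called genes (Isg15 at chr4:156200863-156200908, minus strand; Ifit1 at chr19:34640773-34640825, plus strand; Rsad2 at chr12:26456551-26456584, minus strand) and for 1 gene with a match that was not called (B2m at chr2:122147536-122147569, plus strand), with the motif or its reverse complement in capitals. In Isg15 overlapping matches run together.
Isg15: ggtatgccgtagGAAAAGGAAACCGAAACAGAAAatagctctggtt
Ifit1: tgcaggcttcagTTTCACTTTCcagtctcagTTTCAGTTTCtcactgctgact
Rsad2: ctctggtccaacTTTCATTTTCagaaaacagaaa
B2m: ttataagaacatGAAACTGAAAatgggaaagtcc
Isg15, a ubiquitin-like modifier, stood at 1393, 1596, 834 and 854 in wild-type and 259, 313, 335 and 289 in mutant cultures, Ifit1 at 106, 91.0, 63.9 and 51.1 and 27.2, 36.3, 29.1 and 30.8, and Rsad2 at 106, 162, 112 and 72.9 and 43.5, 48.8, 33.7 and 34.0. All 3 were without overlap.

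The guanylate-binding gene Gbp2b, which was on none of the lists, went against this trend. It was at 0, 0, 0.751 and 0 in wild-type and at 27.5, 19.5, 60.5 and 44.1 in mutant cultures, whereas its relative Gbp3 was at 888, 655, 632 and 559 and 274, 358, 232 and 462. Gbp2b was listed at 0 in 3 of 4 wild-type cultures and remained called with the Y-linked covariate.

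Respiratory complex I genes differed between the fractions. Its nuclear-encoded subunits are imported into mitochondria to form the first enzyme of the respiratory chain. Of 37 tested, 8 were higher and none lower on polyribosomes (median 0.28), so that 21.6% were called against 23.6% of all genes. The difference from total RNA was called higher for 27, where the background is 5.11% of genes. The median in total RNA was -0.19. Ndufa3 was at 2614, 3814, 3875 and 3938 in wild-type and at 7538, 5392, 5319 and 6113 in mutant cultures, a change of 0.78 ± 0.16 against 0.05 in total RNA. Wild-type culture 1 was the lowest for Ndufa3 and mutant culture 1 the highest, as they were for Ndufa1 at 979, 1741, 1785 and 1992 and 3279, 2209.5, 2624 and 2649. The change of the list on polyribosomes was 0.52 in high-Y and 0.04 in low-Y cultures. Subunit Ndufs1, one of the largest, was at -0.23 ± 0.17. Mitochondrial ribosomal protein genes were alike in their difference from total RNA, with 26 of 74 higher than total (median in total RNA -0.45, on polyribosomes -0.13). On polyribosomes alone 1 was higher and 7 were lower (10.8% called).

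Across all genes, 1905 of the 14333 tested in both tables (13.3%) differed between the polyribosomal and the total change, 733 higher and 1172 lower on polyribosomes. Of the 3390 genes called on polyribosomes and tested in both, 3190 changed in the same direction in total RNA, 2314 were also called there (40.3% of all genes tested in total RNA were called), and 597 differed from it. The 2 fractions come from the same cultures. The copper chaperone gene Atox1 was at 1665, 2909, 2799 and 3381 in wild-type and 6326, 4076, 4541 and 4346 in mutant cultures (log2 change 0.87 ± 0.21, total -0.10), and Tmem256 (0.67, total -0.29), Usmg5 (0.69, total -0.26), a subunit of ATP synthase, and Smim27 (0.93, total -0.37) were also higher than total. Cntf, a trophic factor of glia, rose by 1.79 on polyribosomes and 0.61 in total RNA. The histone genes Hist2h3c1 (2.08, total 0.72) and Hist3h2ba (1.08, total 0.12) did so too, but near-identical histone copies share reads. Genes that were lower than total included Bahcc1 (-0.89, total 0.42), Sipa1l3 (-1.12, total 0.01), Xylt1 (-0.81, total 0.30), which starts proteoglycan chains, and Ankrd52 (-1.25, total 0.10). By coding length, the median change of the shortest quintile of genes was 0.10 on polyribosomes and -0.13 in total RNA, and that of the longest quintile -0.05 and 0.14. For 6 genes both changes were called with opposite signs and the difference passed, namely Bahcc1, Xylt1, Marcks, the guidance gene Ntn1 and, higher on polyribosomes, the translocon subunit gene Sec61g and Ost4. These 6 were named after their values were seen. The polyribosomal median of the shortest quintile was -0.16 in wild-type culture 1, relative to the mean of all libraries, between -0.07 and 0.06 in the other wild-type cultures and between -0.03 and 0.11 in the mutant cultures, and the part of message length in the difference was not tested. No gene differed from total RNA with the Y-linked covariate or with limma without the variance trend and robust moderation (0 genes each). The count was 3293 without wild-type culture 1, 933 without wild-type culture 2, 818 without wild-type culture 3 and 800 without mutant culture 1.

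**Figure D4:**
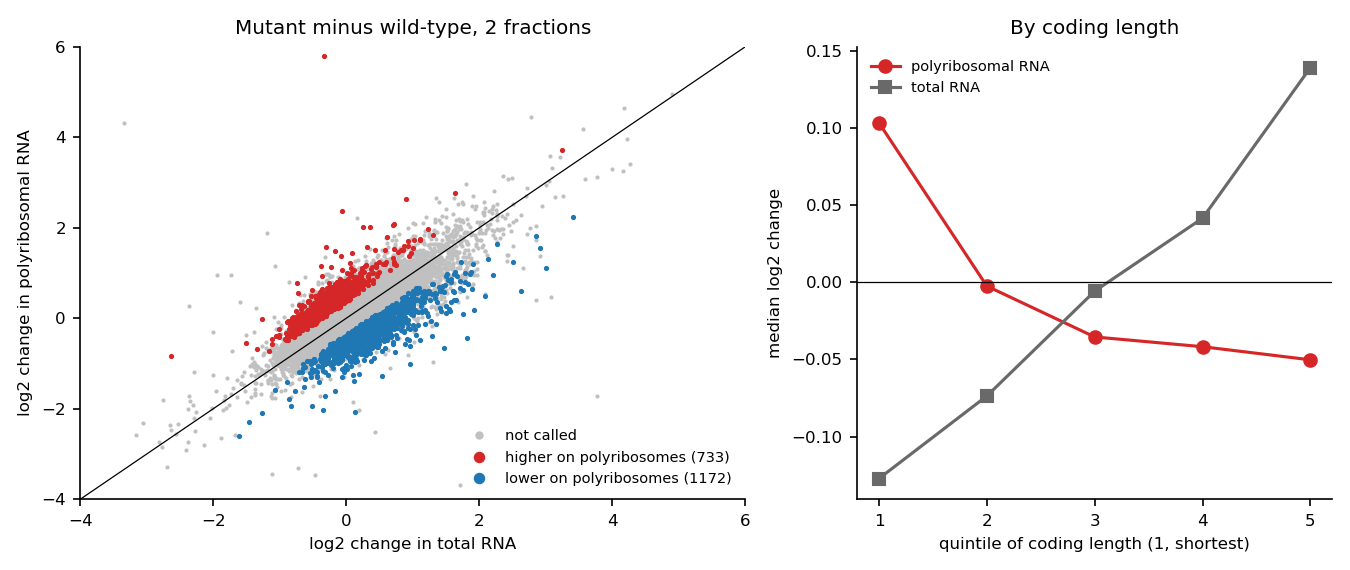
Left, log2 change in polyribosomal RNA against that in total RNA (both Tsc2 mutant minus wild-type) for genes tested in both tables, with genes whose difference was called in red (733) and blue (1172) and the line of equal change; 10 genes lie outside the axes. Right, median log2 change by quintile of coding length, which fell from 0.10 to -0.05 in polyribosomal RNA and rose from -0.13 to 0.14 in total RNA.

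mTOR pathway genes were mixed. Of 32 tested, 7 were higher and 6 lower. Telo2, which helps to assemble mTOR complexes, was at 9564, 8707, 8849 and 7932 in wild-type and 4593, 4328, 4378 and 3253 in mutant cultures. The mTORC1 subunits Rptor (-0.67 ± 0.16) and Mlst8 (-0.45 ± 0.12) fell, whereas Mtor (-0.17 ± 0.12), Rheb (-0.08 ± 0.12) and the Tsc2 partner Tsc1 (-0.09 ± 0.13) did not pass. Among genes that couple amino acids to mTORC1 at the lysosome, Fnip1 (0.78 ± 0.16), Rragd (0.48 ± 0.14), Lamtor1 (0.54 ± 0.18), Lamtor2 (0.53 ± 0.16) and Lamtor4 (0.77 ± 0.17) rose and Fnip2 fell (-0.51 ± 0.15). Of 26 insulin and IGF genes, 3 rose, including the IGF-binding protein gene Igfbp2 (0.75 ± 0.14), and 1, the receptor adaptor gene Grb10, fell, from 1467, 589, 926 and 444 to 216, 166, 349 and 164. Of 20 genes that restrain mTORC1 under stress, Ddit3 rose and Ddit4l (-1.04 ± 0.26) and Depdc5 (-0.49 ± 0.13) fell. With library size scaling the counts were 4 higher and 1 lower. In the main fit 40.6% of the mTOR, 15.4% of the insulin and IGF and 15% of the stress genes were called, against 23.6% of all genes.

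Stem cell transcription factors were lower in part. Of 33 NSC genes, 10 were lower and none higher (median -0.17), and 5 were lower with library size scaling (median -0.04). In the main fit 30.3% were called, against 23.6% of all genes. Hes5, the Notch effector that keeps NSCs undifferentiated, was at 211, 293, 382 and 228 in wild-type and at 131, 133, 52.7 and 66.4 in mutant cultures. Sox3 was at 72231, 78285, 60319 and 69615 and 39497, 50191, 30927 and 22593, and Sox1 at 10651, 9538, 8857 and 8811 and 5767, 7081, 5980.1 and 3629.8. None of the 3 overlapped, and for Sox1 the fall exceeded the change in total RNA (-0.19). Their relative Sox2 was at -0.16 ± 0.11 and did not pass. Nr2e1 (-0.45 ± 0.15) and Fut4, the enzyme that makes the LeX antigen (-1.74 ± 0.33), fell, while Egfr (-0.21 ± 0.16), Vim (-0.03 ± 0.11), Ttyh1 (0.25 ± 0.14) and Ednrb (0.01 ± 0.24) did not pass. Of 25 neuroblast genes 5 rose and 5 fell (40% called). The interneuron factor genes Dlx2 (-1.29 ± 0.17) and Sp8 (-1.27 ± 0.35) fell, whereas Gad1, which makes GABA (1.34 ± 0.24), the microtubule gene Stmn2 (2.29 ± 0.39) and Dcx (0.92 ± 0.27) rose. Dlx2 was at 424, 444, 414 and 374 and 205, 151, 163 and 159.6, whereas Stmn2 was at 96.5, 26.6, 26.6 and 42.4 and 166, 144, 307 and 249.

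Genes of patterning pathways were called in both directions. The share called was 16.7% for Notch, 16.1% for Wnt and 20.7% for BMP and TGF-beta genes, against 23.6% of all genes. For Hedgehog genes it was 35.7% and for YAP targets 44.4%. Of 24 Notch genes 1 rose and 3 fell, with Notch1 at -0.65 ± 0.20 on polyribosomes and 0.39 in total RNA (adjusted p of the difference = 0.00603). Of 14 Hedgehog genes 4 fell, among them the transcription factor genes Gli2 (-1.18 ± 0.22) and Gli3 (-0.65 ± 0.19) and the membrane protein gene Smo (-0.43 ± 0.14), and the coreceptor gene Boc rose (0.70 ± 0.17). Gli2 was at 1531, 1414, 1408 and 1202 in wild-type and 565, 1025, 516 and 467 in mutant cultures. Of 31 Wnt genes 2 rose and 3 fell, with the ligand gene Wnt7a at -0.81 ± 0.18 and the transcription factor gene Lef1 at 1.24 ± 0.40. Under library size scaling 3 Wnt genes were higher and 1 lower. The same scaling left 1 higher and 1 lower in the Notch list, and likewise 1 and 1 in the Hedgehog list. Of 29 BMP and TGF-beta genes 4 rose, among them Smad9 (1.42 ± 0.28) and the target gene Id2 (0.89 ± 0.17), and 2 fell, Bmp7 (-0.69 ± 0.22) and the receptor gene Tgfbr2 (-0.71 ± 0.13). Targets of YAP were split, with 5 of 18 higher and 3 lower. Ctgf (1.73 ± 0.32) and Cyr61 (0.82 ± 0.23) rose, and Yap1 itself fell (-0.53 ± 0.11).

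Early response genes separated the mutant cultures from each other. Klf2, a Kruppel-like transcription factor gene, was at 279.9, 349.5, 325 and 368 in wild-type and at 6528, 642, 6881 and 1456 in mutant cultures. Fos, a subunit of AP-1, was at 1699, 2409, 2180.3 and 1992 and 6830.4, 2639, 6154 and 2077. Mutant cultures 1 and 3 stood above all other cultures in both, and Fos did not pass. The stress factor gene Atf3 was at 542, 864, 559.8 and 894 and 2281, 1259, 3541 and 1397 and rose by 1.48 ± 0.31. Of 28 tested 3 were higher and none lower, so that 10.7% were called against 23.6% of all genes. The median of the list was 0.67 in high-Y and 0.05 in low-Y cultures. Cultures 1 and 3 also differed from 2 and 4 by base composition. The median level of the quintile of genes with the highest GC content, relative to the mean of all libraries, was 0.21, -0.02, 0.14 and -0.23 in mutant cultures 1 to 4 and between -0.09 and 0.04 in wild-type cultures, and its part in these values was not tested. Without mutant cultures 2 and 4, 5402 genes were called, and without mutant cultures 1 and 3, 1168. In the latter case 10 myelin, 7 complement and 8 lysosomal genes and 1 complex I gene were higher, and 21 ribosomal protein, 19 ribosome assembly, 12 replication, 14 interferon and 2 cytosolic chaperone genes were lower.

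Matrix and guidance genes changed in both directions. Calls covered 23.5% of collagens and laminins, 38.6% of other matrix genes and 13.3% of integrins, against 23.6% of all genes. For the semaphorin, ephrin and cadherin lists the shares were 33.3%, 32.3% and 37.5%. Of 34 collagen and laminin genes 7 rose and 1 fell, and 15 were lower than total RNA against a background of 8.18%. Col6a1 was at 354, 393, 419 and 452 in wild-type and 981, 752, 1420.0 and 796 in mutant cultures, whereas Col18a1, a collagen of basement membranes, was at 8886, 6550.4, 8345 and 7985 and 4490.4, 5798, 2891 and 4147. Of 44 other matrix genes 11 rose, including the protease gene Adamts5 (1.75 ± 0.26), and 6 fell, including the stem cell niche gene Tnc (-0.56 ± 0.18) and Fbln2, from 4275, 7173, 10381 and 9886 to 2027, 2905, 2095 and 1196. Of 15 integrin genes Itga3 (1.31 ± 0.22) and Itga8 (1.03 ± 0.21) rose and none fell. Of 30 semaphorin and plexin genes 6 rose, such as Sema3c (1.15 ± 0.19), and 4 fell, such as Plxna1 (-0.67 ± 0.17). The netrin receptor gene Unc5b fell (-1.09 ± 0.16) and was at -0.03 in total RNA, and the other netrin receptor gene Dcc rose by 1.68 ± 0.45. Slit1 fell (-0.79 ± 0.23) and Slit3 rose from 2.77, 5.60, 2.53 and 7.30 to 58.3, 12.6, 98.9 and 46.4, within a list of 31 ephrin, Slit and netrin genes of which 5 rose and 5 fell. Of 16 cadherin genes 4 rose, such as Cdh10 (0.97 ± 0.18), and 2 fell, Celsr1 (-0.73 ± 0.20) and Celsr2 (-0.92 ± 0.22), which orient cells within a sheet.

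Receptor and channel genes held calls in both directions. Calls covered 28.2% of receptor, 22.7% of channel and 15.4% of cyclic nucleotide and calcium genes, against 23.6% of all genes. Of 39 glutamate and GABA receptor and synaptic adhesion genes 10 rose and 1 fell. Gria4, a subunit of AMPA receptors, was at 139.6, 216, 254 and 292 in wild-type and at 809, 739.6, 865 and 1069 in mutant cultures. Grin2c, a subunit of NMDA receptors, was at 138, 208, 342 and 177 and 50.3, 33.0, 48.0 and 73.4. Both were without overlap, and Gria4 remained called with the Y-linked covariate. The scaffold gene Dlgap1 (1.46 ± 0.20) and the GABA receptor gene Gabrb2 (1.33 ± 0.34) rose. Of 44 channel and pump genes 6 rose and 4 fell, including the mechanosensitive channel gene Piezo1 (-0.64 against 0.47 in total RNA). In cyclic nucleotide and calcium signalling 4 of 39 genes rose and 2 fell. The guanylate cyclase gene Gucy1a1, which is on none of the lists, was at 255, 237, 244 and 258 and 824, 649, 780.2 and 604, and Pde9a, whose product degrades cyclic GMP, at 1389, 1781, 1715 and 1923 and 353, 488, 387 and 482. Both remained called with the Y-linked covariate.

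Several of the largest changes belonged to genes not described above. Hoxa5, a homeobox gene of the caudal body axis, was at 9.70, 9.61, 5.78 and 5.44 in wild-type and at 81.3, 40.9, 121 and 119 in mutant cultures. Npvf, which encodes a neuropeptide, was at 8.46, 8.17, 9.82 and 16.6 and 338, 48.9, 784 and 138. Neither overlapped, and Npvf varied widely among mutant cultures, with mutant culture 2 lowest. The anion transporter gene Slco1a4, counted on the list of endothelial genes, was at 0, 0.833, 1.52 and 0 and 21.7, 28.0, 33.9 and 44.8, while the other 6 tested members of that list did not pass. Ahnak, a giant scaffold protein gene of the actin list, was at 59.1, 72.1, 41.9 and 74.9 and 387, 379, 1286 and 376. Slco1c1, a thyroid hormone transporter of astrocytes and vessels, rose by 2.36 ± 0.37, the receptor tyrosine kinase gene Ret by 2.71 ± 0.45, the sodium pump regulator gene Fxyd1 by 2.70 ± 0.37, the sulfotransferase gene Sult1a1 by 3.60 ± 0.54 and the zinc importer gene Slc39a4 by 2.32 ± 0.36. Il3ra, a cytokine receptor subunit (1.90 ± 0.21), Vamp8, a vesicle fusion protein (1.61 ± 0.18), and the noncoding Cep83os (2.54 ± 0.23) had among the smallest p-values of the genes that rose. Among the falls, the scavenger receptor gene Marco was at 286, 504, 442 and 281 and 31.2, 175, 17.0 and 131, with mutant cultures 1 and 3 far below 2 and 4. Nwd1 (-1.06 ± 0.12), Klhdc4 (-0.94 ± 0.11) and Apol9a (-2.36 ± 0.27) had among the smallest p-values of the genes that fell, and Lzts1 fell (-1.77 ± 0.22).

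The most abundant messages per kilobase of transcript included called and uncalled genes, where 23.6% of all tested genes were called. Of the 10 highest, Eef1a1, the chaperone gene Hsp90ab1 (-0.57 ± 0.13) and the actin gene Actg1 (-0.34 ± 0.09) passed, whereas Ckb, Pkm, Eno1, Gapdh, Actb, Lgals1 and Aldoa did not. Ckb, the brain creatine kinase, stood at 2083211, 2452184, 2693470.5 and 2620405 in wild-type and 3609160.3, 2229265, 2423475 and 2518103 in mutant cultures, a change of 0.11 ± 0.14. Among the 300 highest, the 5 largest rises were those of Apoe, Cst3, Fth1, Mt1 and the glutathione transferase gene Gstm1 (1.20 ± 0.22), and the 5 largest falls those of the actin-binding gene Coro2b (-1.40 ± 0.19), the nuclear import gene Ipo4 (-0.82 ± 0.14), Hnrnpd, the elongation factor gene Eef1g (-0.86 ± 0.13) and the DNA repair gene Parp1 (-0.81 ± 0.15). Coro2b was at 43855, 49609.7, 39309 and 46025 in wild-type and 18406, 24627, 14432 and 12241 in mutant cultures, without overlap.

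Cytoskeletal and chromatin lists held calls in both directions. The share called was 36.7% for tubulin and microtubule, 18.2% for actin and 17.5% for chromatin genes, against 23.6% of all genes. It was 20% both for long noncoding RNAs and for pericyte and fibroblast genes. Of 30 tubulin and microtubule genes 6 rose and 5 fell, with Tuba4a at 898, 1158, 1293 and 993 in wild-type and 4452, 2335, 7060.2 and 4376 in mutant cultures and the progenitor tubulin gene Tuba1b at 435717, 404415, 420248 and 352656 and 279831, 326159.8, 232715 and 279876. Tubulin genes are alike in sequence and may share reads. Of 33 actin genes 2 rose and 4 fell. With library size scaling the counts were 3 higher and 0 lower. Of 40 chromatin regulator genes 2 rose and 5 fell, among the latter Smarca4, the motor of the BAF complex (-0.57 ± 0.15), and Setd1a (-0.85 ± 0.26). With library size scaling the counts were 6 higher and 2 lower. Of 25 long noncoding RNAs 3 rose, including the nuclear Neat1 (1.77 ± 0.28) and Malat1 (1.03 ± 0.31), and 2 fell. Of 10 pericyte and fibroblast genes Pdgfra and Rgs5 (2.10 ± 0.60) rose and none fell.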

How the data were processed

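Polyribosomal and total RNA were sequenced from 4 wild-type and 4 mutant cultures, which were grouped by GEO's labels. The authors trimmed the reads, aligned them to mm10 with STAR and normalized each fraction with DESeq2 (STAR, DESeq2 and mm10 are also named in the submitters' processing notes), and the deposited values are a signal of normalized reads per gene. The read counter and the annotation were not found in these sources. Low polyribosomal values lay within 0.1 of a whole read in 70.3% to 93.4% of cases, so counts were not recovered and a count model was not used. Columns with the authors' fold changes and p-values were not used. Of 24972 rows, 26 named by a date were left out, and 24520 of the 24946 genes kept were matched to a gene of the annotation by symbol or older symbol.

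Genes with a mean of at least 10 were tested on log2(value + 1) with limma 3.58.1 in R 4.3.3, with a variance trend, robust moderation and Benjamini-Hochberg adjustment over all tested genes, at a threshold of 0.05. Log2 changes are given with the standard error and understate the change of low values. The difference between fractions was tested with limma on log2 polyribosomal minus log2 total values within each culture; the 2 tables were normalized separately, so a shift common to all genes is not measured. Scripts were tested on simulated data. Gene lists are described by counts and medians, without a set test. The gene members and lists were chosen with earlier results of these data known. Named genes were Tsc2 and its neighbours within 100 kb, the 15 largest changes in each direction without overlap and with a mean of at least 100, the 10 smallest p-values in each direction, the 4 smallest p-values of each list with any called member that moved against the majority, the 10 most abundant genes per kilobase and the 5 largest changes in each direction among the 300 most abundant, the 8 largest differences from total RNA in each direction, and genes of the study's text. Some genes that this rule names are not reported here. Other genes of the text were picked after their values were seen. Alternatives varied the pseudocount (0.5 and 8), the filter, the scaling, the variance model, library weights, a replicate block, a Y-linked covariate and the cultures included; the comparison within cultures of high or low Y-linked level (above 8 or not, mean log2 level) was added after the data were seen. Promoter windows were RefSeq's for GRCm38.p6.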

Additional observations from a re-analysis of the deposited data

Results flagged for a closer look

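In 92 genes whose values are given per culture, 184 groups of 4 were searched for a culture that stood apart, by the ratio of its gap from the nearest other culture to the group's range on the log2 scale (Dixon's critical value at 95%), and 14 groups had one. Chance alone gives about 1 in 20 such groups. Wild-type culture 1 was the stray culture for Ctsa (ratio 0.919), Ctsd (0.842), Ctsf (0.897), Ndufa3 (0.922) and Hk2 (0.95), lowest for the first 4 and highest for Hk2. Wild-type culture 4 was lowest for Eif4ebp2 (0.831), and wild-type culture 3 lowest for Otx2 (0.967) and the only one above 0 for Gbp2b (1.0) and Gdf1 (1.0). Among mutant cultures, culture 4 was lowest for Tsc2 (0.875) and Pkd1 (0.868), which overlap, culture 2 was lowest for Cspg5 (0.897), and culture 3 was highest for Ahnak (0.978) and Irf7 (0.874). Of these genes, all but Otx2 and Gdf1 were called and without overlap between genotypes.

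The polyribosomal change differed from the total change for 1905 genes by limma's test of the difference. Of these, 6 changed in opposite directions with both changes called. Relative to total RNA, Bahcc1 changed by -1.31 (log2; adjusted p = 0.00461), Xylt1 by -1.11 (0.00461), Ntn1 by -0.98 (0.00557) and Marcks by -0.54 (0.00923). Sec61g was higher than total RNA by 0.89 (0.00461) and Ost4 by 0.87 (0.00591).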

How the results depend on the processing

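The count of 3403 genes called on polyribosomes (1690 higher and 1713 lower) and that of 1905 genes differing from total RNA stayed within 1.5 times under both other pseudocounts, both other filters and median of ratios scaling. With library size scaling 2583 genes were higher and 929 lower. Quantile normalization gave 2749 calls and plain limma 2864, but plain limma called no difference from total RNA (0 genes). Library weights raised the counts to 5937 (2924 higher and 3013 lower) and 4467. With the Y-linked covariate 30 genes passed (17 higher and 13 lower) and 0 differed from total RNA. High-Y cultures alone gave 2207 calls (1067 higher and 1140 lower) and 0 differences, and low-Y cultures alone 7 calls (5 higher and 2 lower) and 9 differences, each with 1 culture on a side whose spread is taken from the other side. Without mutant cultures 2 and 4 there were 5402 calls (2587 higher and 2815 lower), and without mutant cultures 1 and 3 there were 1168 (535 higher and 633 lower) and 0 differences. Leaving out 1 culture at a time gave 1884 to 4087 calls, with 981 to 1981 higher and 891 to 2106 lower, the fewest without wild-type culture 2 (for lower calls, wild-type culture 3) and the most without mutant culture 2, and 800 (without mutant culture 1) to 3293 (without wild-type culture 1) differences from total RNA. The replicate block gave 2361 calls and 1555 differences. Deviations from the group means of cultures that share a number correlated at -0.13, -0.04, -0.06 and 0.06, and pairs of unlike number reached 0.13. Whether cultures that share a number also share a litter is not given in the labels. Of the 308 genes named in the text, 1 turned direction with a call, Ednrb, which was at -0.48 without mutant cultures 2 and 4. Of the 271 called genes in the text, low-Y cultures alone ended the call for 268, the Y-linked covariate for 248, leaving out mutant cultures 1 and 3 for 110, high-Y cultures alone for 74, the replicate block for 36, quantile normalization for 35, plain limma for 32, library size scaling for 29 and leaving out 1 culture for 4 (mutant culture 2) to 59 (wild-type culture 3). Of 24 lists with a median of at least 0.3 in size, 1, that of microglia, changed sign, under library weights, without mutant cultures 2 and 4, without mutant culture 2 and in high-Y cultures alone. In the 250 bases before the start alone the share of replication genes with the E2F motif was 20% rather than 36.7%. The cause of these shifts was not tested. Depth limits the scarce genes: those with a mean under 10 were not tested, and values near 0 differ by few reads.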

Other observations

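Hist1h2bq, a histone gene whose copies share reads, was at 0, 2.29, 37.8 and 0 on wild-type and 139.6, 104, 236 and 353 on mutant polyribosomes, while total RNA was at a log2 change of -0.34. Gdf1, a TGF-beta ligand gene that shares a transcript with Cers1, was at 0, 0, 284 and 0 and 584, 626, 235 and 182. It had the largest positive log2 change of all tested genes (6.43 ± 2.00) and did not pass.

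Barx1, a homeobox gene, was at 8.58, 15.9, 14.5 and 6.81 and 77.3, 36.9, 48.2 and 45.5, and like Hoxa5 it remained called with the Y-linked covariate. Of the 30 genes called with that covariate, 17 were higher and 13 lower, and they include Dmpk, Gm38431, Il3ra, Saa3 and Vamp8.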
